A study of Mus musculus with 6 samples.

Results

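The enzymes that make, convert and inactivate prostaglandins and leukotrienes, together with 3 receptors for prostaglandin E2, were examined in colon tissue with colitis-associated tumors as 10 genes: Ptgs1, Ptgs2, Ptges, Ptgis, Hpgd, Ptger2, Ptger3, Ptger4, Alox5 and Alox15. Every gene probe whose deposited name was one of these symbols was taken, which gave 20 of the 56605 gene probes on the array and 10 of the 37325 genes named there. Of the 20 probes, 14 were bright enough to be tested, and all 10 genes had at least 1 of them. None of the 10 genes passed the test between treated and control tissue, and their levels on single arrays ranged over a log2 span from 0.28 for Ptges to 4.08 for Alox15.

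C57BL/6 male mice, 6 to 8 weeks old when bought, had been injected with azoxymethane (AOM, 10 μg/g), a carcinogen, and given 2% dextran sodium sulfate (DSS), which inflames the colon, in their drinking water. Both groups carried these chemically induced tumors. RNA of 3 samples came from mice dosed by mouth with RG@M-γ-CD, named Rgnanomedicine (Test) in the labels, at 30 μg/g of complex or 10 μg/g of regorafenib over 21 days, followed by 14 days of observation, and RNA of 3 samples came from mice given PBS (Control). RG@M-γ-CD is an inclusion complex of regorafenib, a multikinase inhibitor, in mannose-modified γ-cyclodextrin. The labels name the tissue as colon tumor and the methods as colon with tumors, so each RNA sample could hold tumor and wall cells, and fewer cells of a type cannot be told apart from less RNA per cell. By the study's description the samples came from independent mice, while the labels carry only a number for each sample.

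Cyclooxygenases, encoded by Ptgs1 and Ptgs2, turn arachidonic acid into prostaglandin H2, from which terminal synthases form prostaglandin E2 (Ptges) or prostacyclin (Ptgis). Prostaglandin E2 acts through G protein-coupled receptors that raise cyclic AMP (Ptger2, Ptger4) or mostly lower it (Ptger3), and it is inactivated by the dehydrogenase Hpgd. Lipoxygenases take the same fatty acid to leukotrienes (Alox5) or to hydroxy fatty acids (Alox15), and Ptgs2 and prostaglandin E2 are long known for promoting colon tumors in mice.

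Several of the genes were read by more than 1 probe, and for Ptges, Ptgis and Ptger3 the probes differed in what they showed. The first 30 of the 60 bases of these probes, all but 1 of them, are printed here, 5′ to 3′ as deposited, so that the probe behind each value can be identified. The Ptges probes were these:
A_55_P1974193: atgataaaggactaaacctctgaacctgta
A_51_P312327: gccacttacagatgagctgtcaagatttga
A_55_P1974189: aaccctctgatcgcctggatacatttcctc
Of the Ptgis probes, A_51_P372819 and A_55_P2154027 name the same RefSeq transcript and A_55_P2074757 names an Ensembl transcript:
A_51_P372819: ttgaacccagatggatctgaaaagaaagat
A_55_P2074757: atctggtcccccactagcagatgctaccca
The Ptger3 probes were these, of which A_51_P520718 and A_55_P1975481 name the same RefSeq transcript and the others name separate Ensembl transcripts:
A_51_P520718: ctaaatgttcagctagagctgttaaaagga
A_55_P1975481: accagatcttggatccctgggtttatctgc
A_52_P160481: aaagggagtcactatgaaaagaacatcagt
A_66_P127721: ggtaaagactatcatcagaggaatgtccat
The probes of Ptges lie within 3.22 kb of one another by their start positions, those of Ptgis within 15 kb and those of Ptger3 within 40 kb.

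Each level is given as the log2 intensity of a probe minus the 75th percentile that the gene probes of its array reached, so a value of 0 is that percentile and a step of 1 is a doubling. A gene was represented by its brightest tested probe, and levels were compared between arrays only for the same probe. Differences were tested with limma as RG@M-γ-CD minus PBS, with Benjamini-Hochberg adjustment over 19087 genes. Between 28103 and 31219 gene probes were well above background on the 6 arrays, which came from 1 slide and 1 scan. All 3 RG@M-γ-CD arrays and PBS replicate 1 lay in row 1 of the slide, and PBS replicates 2 and 3 lay in row 2. The epithelial markers of the colon, 10 of 10 genes including Epcam, Cdh1 and Krt8, were well above background on all 6 arrays. RG@M-γ-CD replicate 2 stood farthest from the rest, with a median Pearson r of 0.964 across genes against 0.976 to 0.985 for the other arrays. A heat map in the study's supplement sets RG@M-γ-CD replicates 2 and 3 beside PBS replicate 1, and RG@M-γ-CD replicate 1 beside PBS replicates 2 and 3, without naming conditions.

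Of the 10 genes, 0 passed an adjusted p of 0.05, as did 0% of all genes tested, where the smallest adjusted p was 0.817 in limma. For each of the 10 genes and each of their 14 tested probes the adjusted p was 1. At an unadjusted p under 0.05 limma counted 0 of the 10 genes and 2.2% of all genes. The methods' t-test counted 1 of the 10 (Ptges) and 381, or 2%, of all genes, with 0 after adjustment. The 3 RG@M-γ-CD arrays lay entirely on one side of the 3 PBS arrays in 1 of the 10 genes, Ptges, against 4.57% of all genes. At a fold change of 2 and an unadjusted p of 0.05 the count was 0 of the 10 genes, against 0.561% of all. By sign, 6 genes were higher in RG@M-γ-CD and 4 were lower, with a median change of 0.24 on the log2 scale beside −0.01 over all genes tested. With 3 arrays a group, the smallest two-sided p of an exact permutation test is 0.1, so none was used for single genes.

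**Figure D1:**
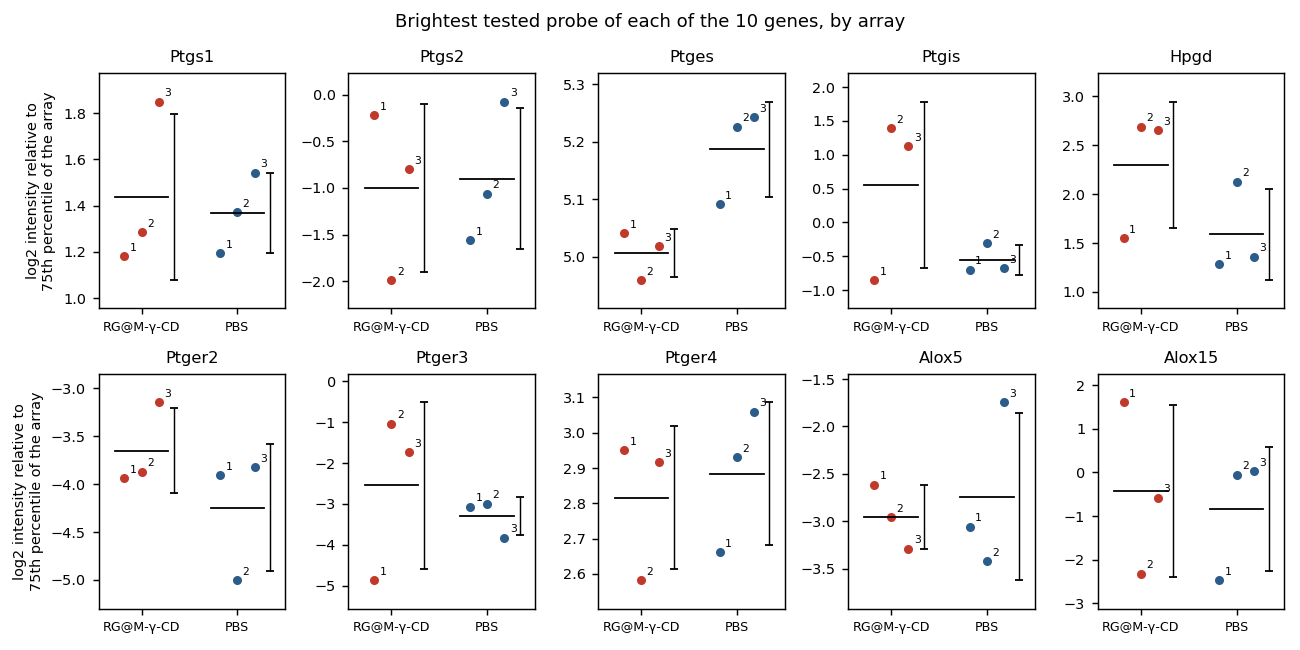
Level of the brightest tested probe of each gene on each array (log2 intensity relative to the 75th percentile of the array, with its own vertical scale for each gene). Points are the 3 arrays of a group, numbered by replicate, the horizontal line is the mean and the bar beside it 1 SD. The groups overlap in every panel except Ptges, and Alox15 and Ptger3 spread most within the RG@M-γ-CD group.

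Ptgs1, the cyclooxygenase that most tissues make steadily, had close group means. Its probe A_51_P279100 read 1.18, 1.29 and 1.85 on RG@M-γ-CD replicates 1 to 3 and 1.19, 1.37 and 1.54 on PBS replicates 1 to 3. The groups overlapped, with the highest array among the treated ones, and the change was 0.07 on the log2 scale (standard error 0.23, 95% interval −0.47 to 0.61). The other Ptgs1 probe, A_55_P2720465, was well above background on RG@M-γ-CD replicates 2 and 3 (−4.09 and −3.88) and not on the remaining 4 arrays, and it was not tested.

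Ptgs2, the cyclooxygenase induced by inflammation, spread widely within both groups. It read −0.22, −1.99 and −0.80 on the RG@M-γ-CD arrays and −1.56, −1.06 and −0.08 on the PBS arrays. RG@M-γ-CD replicate 1 and PBS replicate 3 were highest, RG@M-γ-CD replicate 2 was lowest and the groups overlapped over most of their span. The change was −0.10 (standard error 0.55), and its interval of −1.43 to 1.23 allows a doubling in either direction. The sign of this change turned in 3 of 17 alternatives, to 0.56 with the slide row as a block, 0.39 without RG@M-γ-CD replicate 2 and 0.31 without PBS replicate 3.

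Ptges, the inducible terminal synthase of prostaglandin E2, was by its brightest probe the steadiest of the 10 genes and the 1 gene whose groups did not overlap. Probe A_55_P1974193 read 5.04, 4.96 and 5.02 on the RG@M-γ-CD arrays and 5.09, 5.23 and 5.24 on the PBS arrays. Every treated array lay below every control array, but the nearest pair was 5.04 against 5.09, and the change of −0.18 (standard error 0.14, interval −0.52 to 0.16) did not pass the test. Under quantile normalization, normexp background correction, the authors' table or the mean of its probes the Ptges arrays overlapped.

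The other Ptges probes pointed the same way by sign. A_51_P312327 read −1.46, −1.99 and −1.70 against −1.37, −1.32 and −1.16, again with every RG@M-γ-CD array below every PBS array and a change of −0.43 (standard error 0.19). A_55_P1974189 read −3.21, −3.80 and −3.51 against −3.02, −3.72 and −2.94, where the groups overlapped and the change was −0.28 (standard error 0.27). Neither passed the test over all probes, and all 3 probes name the same RefSeq transcript, so they are not independent of one another.

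Ptgis, which encodes prostacyclin synthase, an enzyme known from vessel walls and smooth muscle, had the largest change of the 10 genes in the labelled comparison. Probe A_55_P2154027 read −0.85, 1.40 and 1.13 on the RG@M-γ-CD arrays and −0.70, −0.30 and −0.68 on the PBS arrays. RG@M-γ-CD replicates 2 and 3 lay above all controls, while replicate 1 was the lowest of the 6 arrays. The treated mean was 0.56 ± 1.23 and the control mean −0.56 ± 0.22 (SD, n = 3 each). The change of 1.12 (standard error 0.58, interval −0.28 to 2.52) did not pass the test.

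The second Ptgis probe on the same transcript, A_51_P372819, was likewise lowest on replicate 1 among the treated arrays. It read −3.76, −2.26 and −2.18 in RG@M-γ-CD and −4.10, −3.66 and −4.19 in PBS, a change of 1.25 (standard error 0.45, with an unadjusted p of 0.0292 and an adjusted p of 1 over 28288 probes in limma). RG@M-γ-CD replicate 1 lay between the controls, and the other treated arrays lay above them. The remaining Ptgis probe, A_55_P2074757, which names an Ensembl transcript, ran the other way. It was not well above background on any RG@M-γ-CD array (−5.60, −5.06 and −6.48). On PBS it was well above background on replicates 2 and 3 (−3.35 and −4.37) but not on replicate 1 (−4.90). It was not tested, and its signal was at least 1.1-fold higher in PBS when the treated arrays are taken at the dimmest signal that counts as above background.

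Leaving out RG@M-γ-CD replicate 1 changed the call of Ptgis alone among the 10 genes. Without that array the change was 1.82 (standard error 0.21, adjusted p = 0.0311 from limma), and without the other arrays in turn it ran from 0.70 to 1.25. In the same comparison of 2 treated arrays with 3 controls, 1.06% of all genes passed the adjusted threshold, and 3 of the 10 genes (Hpgd, Ptger3 and Ptgis) stood at an unadjusted p under 0.05 against 12.5% of all genes. The same 3 genes also met the fold change of 2, against 5.86% of all genes, and with Ptges 4 of the 10 did not overlap between the groups, against 25.9% of all genes. Without PBS replicate 2, Ptges and Hpgd did not overlap, against 11.5% of all genes. Ptgis was lowest on RG@M-γ-CD replicate 1, so its difference without that array is larger by construction.

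Markers of smooth muscle, like Ptgis, were lowest on RG@M-γ-CD replicate 1 and highest on the other treated arrays. Of 8 listed genes 7 were tested, all 7 were higher in RG@M-γ-CD by their means and 0 reached an unadjusted p under 0.05 in limma, with a median change of 0.91. Their summed level, as a multiple of the 75th percentile, was 103, 665 and 799 on RG@M-γ-CD replicates 1 to 3 and 229, 197 and 220 on the PBS arrays. The desmin gene Des, a defining marker of muscle, read 0.29, 2.96 and 3.65 against 1.45, 0.96 and 1.63, and Lmod1 was well above background on 4 of the 6 arrays and not tested. Replicate 1 was lowest and replicates 2 and 3 highest for the muscle markers and for both tested Ptgis probes, except that PBS replicates 1 and 3 lay below replicate 1 on A_51_P372819. Endothelial markers, 6 of 6 tested, summed to 4.67, 6.86 and 5.24 on the RG@M-γ-CD arrays and 4.6, 5.48 and 3.55 on the PBS arrays, and fibroblast markers, 8 of 8 tested, to 94.0, 164 and 163 against 124, 130 and 127. The part of muscle, vessel and stromal content in the Ptgis values was not tested.

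**Figure D2:**
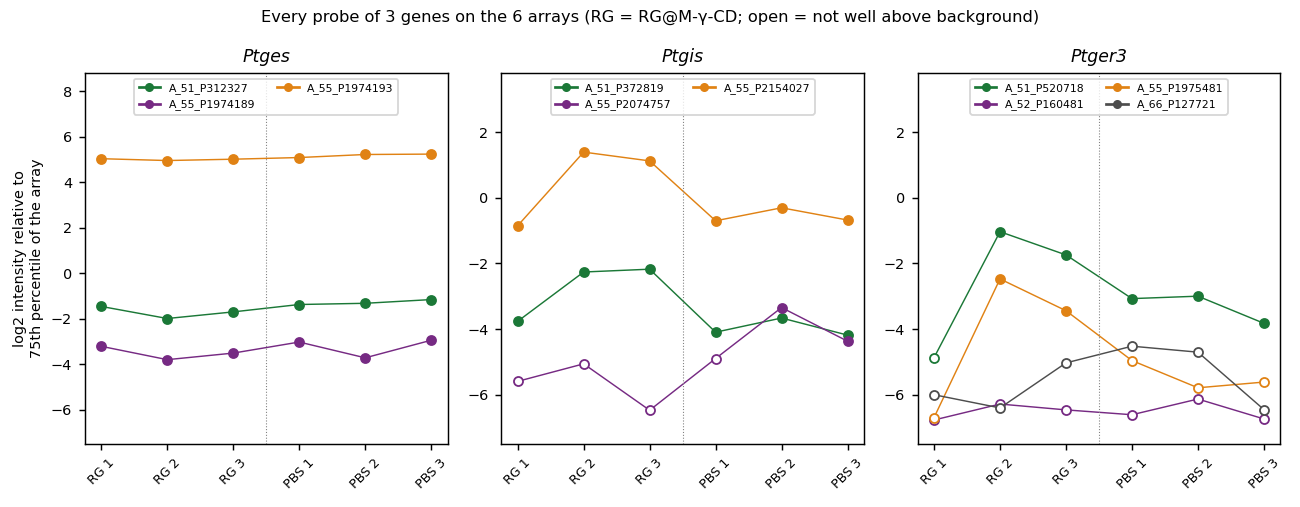
Level of every probe of Ptges, Ptgis and Ptger3 on the 6 arrays (log2 intensity relative to the 75th percentile of the array), with lines joining the values of 1 probe and open points marking arrays where it was not well above background. Ptges probe A_55_P1974193 runs level, and 2 Ptgis probes peak on RG@M-γ-CD replicates 2 and 3 while A_55_P2074757 is highest on PBS replicate 2. Only A_51_P520718 and A_55_P1975481 of the Ptger3 probes leave the background.

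Hpgd, the dehydrogenase that inactivates prostaglandin E2 and is known to be reduced in many colon tumors, read 1.55, 2.69 and 2.65 on the RG@M-γ-CD arrays and 1.28, 2.13 and 1.36 on the PBS arrays. RG@M-γ-CD replicates 2 and 3 were highest, and replicate 1 lay below PBS replicate 2, so the groups overlapped. The change was 0.71 (standard error 0.39, interval −0.22 to 1.64), and it kept its sign in all 17 alternatives, from 0.51 to 1.08. Epithelial markers, whose cells are a known source of Hpgd, summed to 912, 1270 and 1375 on the RG@M-γ-CD arrays and 998, 1557 and 1251 on the PBS arrays. That sum was lowest on replicate 1 in each group, as was Hpgd, and it rests mostly on Krt8, Lgals4 and Muc2. Among the treated arrays Epcam, Cdh1 and Krt20 were instead lowest on replicate 2. The part of epithelial cells in the Hpgd values was not tested. Over the 6 arrays the genes with the highest Pearson r with Hpgd were Raet1a (0.996), Wwc2 (0.991) and Klb (0.990), given as a description.

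The receptors for prostaglandin E2 included 1 steady gene and 2 that were well above background on only 5 of the 6 arrays. Ptger4, which raises cyclic AMP, read 2.95, 2.58 and 2.92 on the RG@M-γ-CD arrays and 2.66, 2.93 and 3.06 on the PBS arrays with probe A_55_P2747136. The groups overlapped, and the change was −0.07 (standard error 0.19, interval −0.52 to 0.38). A second probe, A_51_P207988, gave 0.07 (standard error 0.16), and the remaining probe, A_55_P2719165, stayed near the background on all 6 arrays. The sign of Ptger4 turned in 4 of 17 alternatives, within −0.26 and 0.15 over all of them.

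Ptger2, the other receptor that raises cyclic AMP, was dim. It read −3.94, −3.87 and −3.14 on the RG@M-γ-CD arrays and −3.90, −5.00 and −3.83 on the PBS arrays, where replicate 2 was not well above background. RG@M-γ-CD replicate 3 was highest and the groups overlapped, and the change of 0.59 (standard error 0.38, interval −0.33 to 1.52) did not pass the test. PBS replicate 2 carried most of that difference, since the change was 0.21 without it.

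Ptger3, which mostly lowers cyclic AMP, separated the treated arrays from one another more than from the controls. Probe A_51_P520718 read −4.87, −1.03 and −1.74 on the RG@M-γ-CD arrays, with replicate 1 not well above background, and −3.07, −3.00 and −3.83 on the PBS arrays. RG@M-γ-CD replicates 2 and 3 lay above all controls and replicate 1 below them. The change was 0.75 (standard error 0.96, interval −1.56 to 3.06), and it became 1.91 without RG@M-γ-CD replicate 1 and −0.0074 without replicate 2.

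The Ptger3 probe A_55_P1975481, which names the same transcript and starts 39.5 kb away by its genomic position, was well above background on RG@M-γ-CD replicates 2 and 3 (−2.47 and −3.44) and not on replicate 1 (−6.70) or on any PBS array (−4.96, −5.79 and −5.62). Its treated mean was at least 1.09-fold higher than the controls taken at the dimmest signal above background, and it was not tested. The remaining Ptger3 probes, A_52_P160481 and A_66_P127721, were not well above background on any array. For both visible probes replicate 1 was lowest and replicates 2 and 3 highest, as for the smooth muscle markers (summed level 103 against 665 and 799), and the part of muscle content was not tested.

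**Figure D3:**
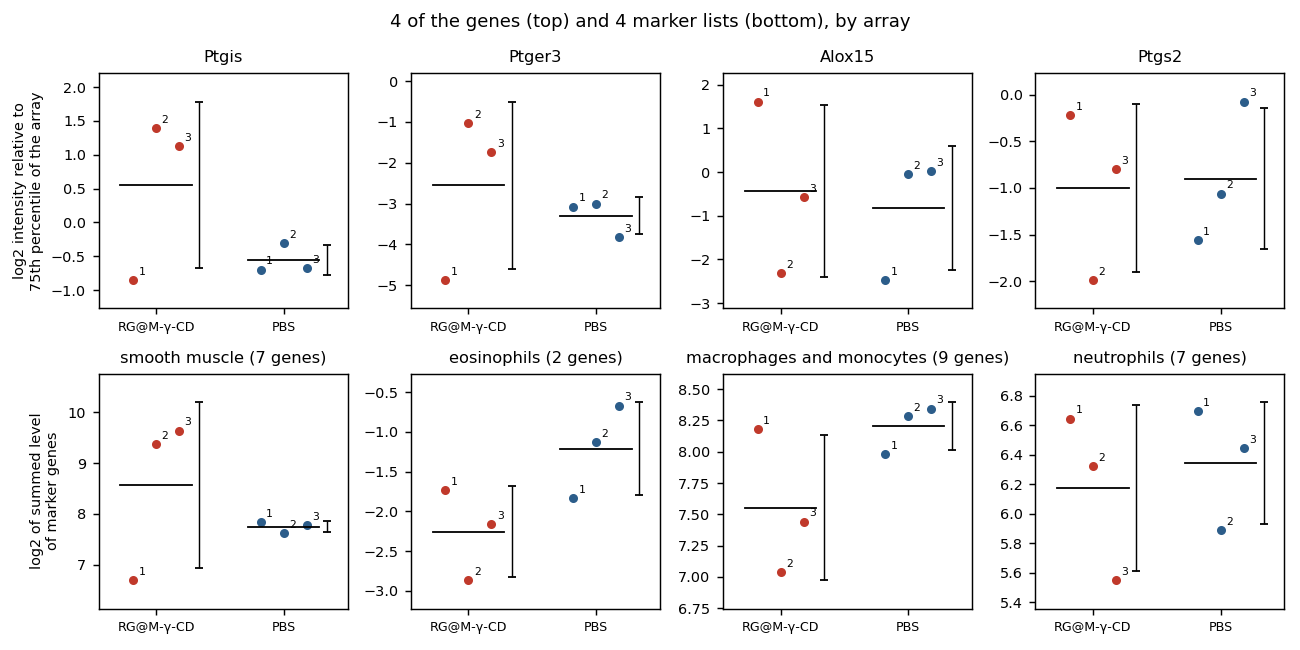
Levels of Ptgis, Ptger3, Alox15 and Ptgs2 (top, log2 intensity relative to the 75th percentile of the array) and summed levels of 4 marker lists (bottom, log2 of the sum over tested marker genes) on each array, numbered by replicate, with the group mean and a bar of 1 SD. Smooth muscle markers, Ptgis and Ptger3 were lowest on RG@M-γ-CD replicate 1 and highest on RG@M-γ-CD replicates 2 and 3. The neutrophil sum rests mostly on Csf3r and S100a9, and the macrophage and monocyte sum on Lyz2 and Ly6c2.

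Alox5, which begins leukotriene synthesis and is known from neutrophils, macrophages and mast cells, read −2.62, −2.96 and −3.29 on the RG@M-γ-CD arrays and −3.06, −3.42 and −1.74 on the PBS arrays. PBS replicate 3 was highest, and the groups otherwise overlapped. The change was −0.21 (standard error 0.45, interval −1.30 to 0.87), and it turned to 0.28 without PBS replicate 3. The summed level of mast cell markers, 7 of 8 tested, was also highest on that array, at 20.9 against 6.46 to 9.19 on the others. That sum rests mostly on Mcpt4 and Mcpt1, which read 3.13 and 2.82 there. Cma1 was instead highest on PBS replicate 2 and Hdc on PBS replicate 1. The part of mast cells in the Alox5 value of PBS replicate 3 was not tested.

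Alox15, a lipoxygenase known from eosinophils and some macrophages, had the widest span of the 10 genes. It read 1.61, −2.32 and −0.58 on the RG@M-γ-CD arrays and −2.47, −0.05 and 0.03 on the PBS arrays. RG@M-γ-CD replicate 1 was highest and PBS replicate 1 and RG@M-γ-CD replicate 2 lowest, so each group held both high and low arrays. The change was 0.40 (standard error 1.11, interval −2.27 to 3.08). It was −0.62 without RG@M-γ-CD replicate 1, −0.42 without PBS replicate 1 and 2.04 with the slide row as a block.

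The eosinophil markers gave little signal. Epx, Prg2, Ccr3 and Ear6 were not well above background on any array, and the summed level of Siglecf and Il5ra was 0.301, 0.137 and 0.223 on the RG@M-γ-CD arrays and 0.281, 0.457 and 0.629 on the PBS arrays. That order differed from the order of Alox15, which was highest on RG@M-γ-CD replicate 1. The macrophage and monocyte markers, tested in 9 of 9 genes, were all lower in RG@M-γ-CD by their means. Their summed level was 290, 131 and 174 on the RG@M-γ-CD arrays and 253, 312 and 325 on the PBS arrays. That sum rests mostly on Lyz2 and Ly6c2, and it was lowest on RG@M-γ-CD replicate 2, as was Ptgs2. Adgre1, Cd68, Cd14 and Mrc1 were instead lowest on RG@M-γ-CD replicate 3. Neutrophil markers, 7 of 8 tested with Ngp not well above background on any array, were lower in RG@M-γ-CD by their means in 6 of the 7 genes, with a median change of −1.12 and a mean log2 level of 1.54, −1.45 and −0.91 against 1.13, 0.26 and 1.19. Their summed level of 100, 80.0 and 46.8 against 104, 59.3 and 87.2 rests mostly on Csf3r and S100a9. Csf3r read 5.02, 6.25 and 5.30 against 6.01, 5.19 and 5.18. S100a9 read 5.74, 0.95 and 2.02 against 4.83, 4.07 and 5.06, and it gave the larger part on RG@M-γ-CD replicate 1. B and T cell markers, 6 of 8 tested, summed to 3.8, 3.33 and 4.21 against 10.1, 7.07 and 2.95. Over all marker lists, Siglecf, Il5ra, Cd14 and Cd3g were lower in RG@M-γ-CD at an unadjusted p under 0.05 in limma. The endothelial marker Tek was higher at that threshold, which 2.2% of all genes reached. None of these markers passed the adjustment. Tuft cell markers were seen in 4 of 8 genes, with Trpm5, Pou2f3, Il25 and Gnat3 not well above background on any array. The part of these cells in the values of Alox15, Ptgs2 and Ptgs1 was not tested.

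The spread over the 6 arrays set the 10 genes apart from one another. The span from the lowest to the highest array was 4.08 on the log2 scale for Alox15, 3.84 for Ptger3, 2.25 for Ptgis, 1.91 for Ptgs2, 1.86 for Ptger2, 1.68 for Alox5 and 1.40 for Hpgd, beside a median of 0.72 over all genes tested. For Alox15 that was 16.9-fold, and 99.5% of all genes tested had a smaller span. Ptgs1 (0.67), Ptger4 (0.48) and Ptges (0.28) lay below the median, and for this Ptges probe 6.02% of all genes had a smaller span. The other Ptges probes, A_51_P312327 and A_55_P1974189, spanned 0.83 and 0.85, above that median. The lowest array was not well above background for Ptger2 and Ptger3, so their spans rest on a dim value at the low end. Genes whose levels followed Ptgs2 most closely over the 6 arrays were Slc25a20, Ppp2r1b and Tmed7 (Pearson r of 0.997, 0.997 and 0.996), and those closest to Alox15 included 4933427D06Rik (0.998) and Gmcl1 (0.997), as descriptions over 6 values.

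The heat map of the study divides the arrays across the labels. Since such a map is arranged by expression, differences between these sides are a description and name neither side as treated. Along this division Alox15 was −1.79 ± 1.05 (SD, n = 3) on RG@M-γ-CD replicates 2 and 3 with PBS replicate 1 and 0.53 ± 0.94 (SD, n = 3) on the remaining arrays, a difference of −2.32 with no overlap. Ptger3 differed by 1.95, Ptgis by 1.22 and Ptgs2 by −0.997 with arrays that overlapped, and Ptger4 by −0.26 without overlap. Among the 10 genes 3 stood at an unadjusted p under 0.05 along this division (Alox15, Ptger3 and Ptgs2), against 16.5% of all genes. Of these Alox15 and Ptger3 also met a fold change of 2, against 5.87% of all genes, and the 2 genes without overlap stand against 25.5% of all genes.

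**Figure D4:**
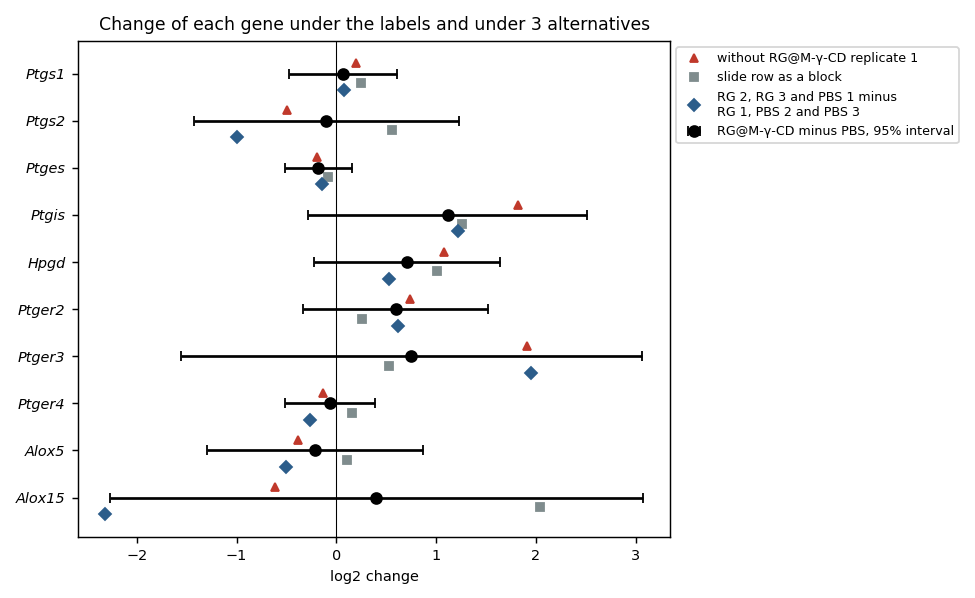
Log2 change of each gene (horizontal axis) as labelled, RG@M-γ-CD minus PBS with its 95% interval (black), without RG@M-γ-CD replicate 1 (triangles), with the slide row as a block (squares), and between the sides of the study's heat map (diamonds). Every labelled interval includes 0, and Alox15 moves from −2.32 to 2.04 between the diamonds and the squares.

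Of the other genes of the pathway, 56 were listed, 41 were bright enough to be tested and 9 stayed near the background on all 6 arrays. Of the 41, 16 were higher in RG@M-γ-CD and 25 were lower, with a median change of −0.11, 0 passed an adjusted p of 0.05 in limma or in the methods' t-test, and 2 had an unadjusted p under 0.05 in limma, against 2.2% of all genes. These were Tbxa2r, the thromboxane receptor, and Gpr31b, known as a receptor for a lipoxygenase product, each with an adjusted p of 1.

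Tbxa2r read −2.44, −1.92 and −1.37 on the RG@M-γ-CD arrays and −3.21, −2.75 and −3.04 on the PBS arrays. Every treated array lay above every control, and the change was 1.09 (standard error 0.30), which did not pass the adjustment. Under normexp background correction it was 0.56. Thromboxane synthase, Tbxas1, differed by −0.38 (standard error 0.23), and the prostacyclin receptor Ptgir, the partner of Ptgis, by 0.14 (standard error 0.26). Ptger1, a further receptor for prostaglandin E2, Ptgdr, a receptor for D2, and Ptgfr, the receptor for F2α, were not well above background on any array. Ptgdr2, another D2 receptor, was well above background on 3 arrays and was not tested. Hpgds, a prostaglandin D2 synthase, differed by 0.05 (standard error 0.26).

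Gpr31b read −1.73, −3.16 and −2.93 on the RG@M-γ-CD arrays and −1.43, −1.78 and −1.67 on the PBS arrays. Its replicate 1 lay among the controls and the other treated arrays below them, a change of −0.98 (standard error 0.38). Its unadjusted p did not stay under 0.05 in limma under quantile normalization (0.0668), normexp (0.0544, at a change of −0.60) or the authors' table (0.0670), nor in the methods' t-test. The secreted phospholipase Pla2g2a, a gene that C57BL/6 mice carry in a disrupted form, likewise had replicates 2 and 3 below all controls, with 4.63, 2.52 and 2.71 against 4.35, 4.14 and 4.30 and a change of −0.98 (standard error 0.55). Without RG@M-γ-CD replicate 1 both passed the adjusted threshold, as did 1.06% of all genes. Gpr31b stood at −1.42 (adjusted p = 0.0407 from limma) and Pla2g2a at −1.65 (adjusted p = 0.0301 from limma). Tbxa2r did not pass (1.36, adjusted p = 0.0782 from limma). Among the treated arrays Gpr31b and Pla2g2a were highest on replicate 1, so their differences without that array are larger by construction. When each of the other arrays was left out instead, the unadjusted p of Gpr31b in limma lay between 0.0725 and 0.118, and Pla2g2a stood at −0.60 once replicate 2 of RG@M-γ-CD was dropped.

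The remaining partners of the 10 genes differed by 0.14 or less in either direction. Pla2g4a, the cytosolic phospholipase that releases arachidonic acid, differed by −0.0025 (standard error 0.23), and Slco2a1, the prostaglandin transporter that works with Hpgd, by 0.14 (standard error 0.30). In the leukotriene branch, Alox5ap, the helper protein of Alox5, differed by −0.14 (standard error 0.37), Lta4h by 0.04 (standard error 0.24) and Ltc4s by −0.01 (standard error 0.17). The largest differences after these in each direction were −0.79 (standard error 0.49) for Pla2g2d and 0.29 (standard error 0.96) for Alox12e, a lipoxygenase, followed by 0.28 (standard error 0.24) for the carbonyl reductase Cbr1. These rested on single arrays: Pla2g2d was −0.30 without RG@M-γ-CD replicate 2, Alox12e −0.57 without RG@M-γ-CD replicate 1 and 1.41 without replicate 2, and Cbr1 0.09 without PBS replicate 1. Along the division of the study's heat map Alox12e was −1.46 and Cbr1 −0.11.

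By role, arachidonate release had 3 genes higher and 8 lower of 11 tested, other prostanoid synthases 4 and 5 of 9, transport and breakdown 2 and 2 of 4, other prostanoid receptors 2 and 0 of 2, leukotriene synthesis and breakdown 3 and 5 of 8, other lipoxygenases 1 and 1 of 2, and receptors for leukotrienes and related lipids 1 and 4 of 5. Over all genes tested 47.2% were higher.

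**Figure D5:**
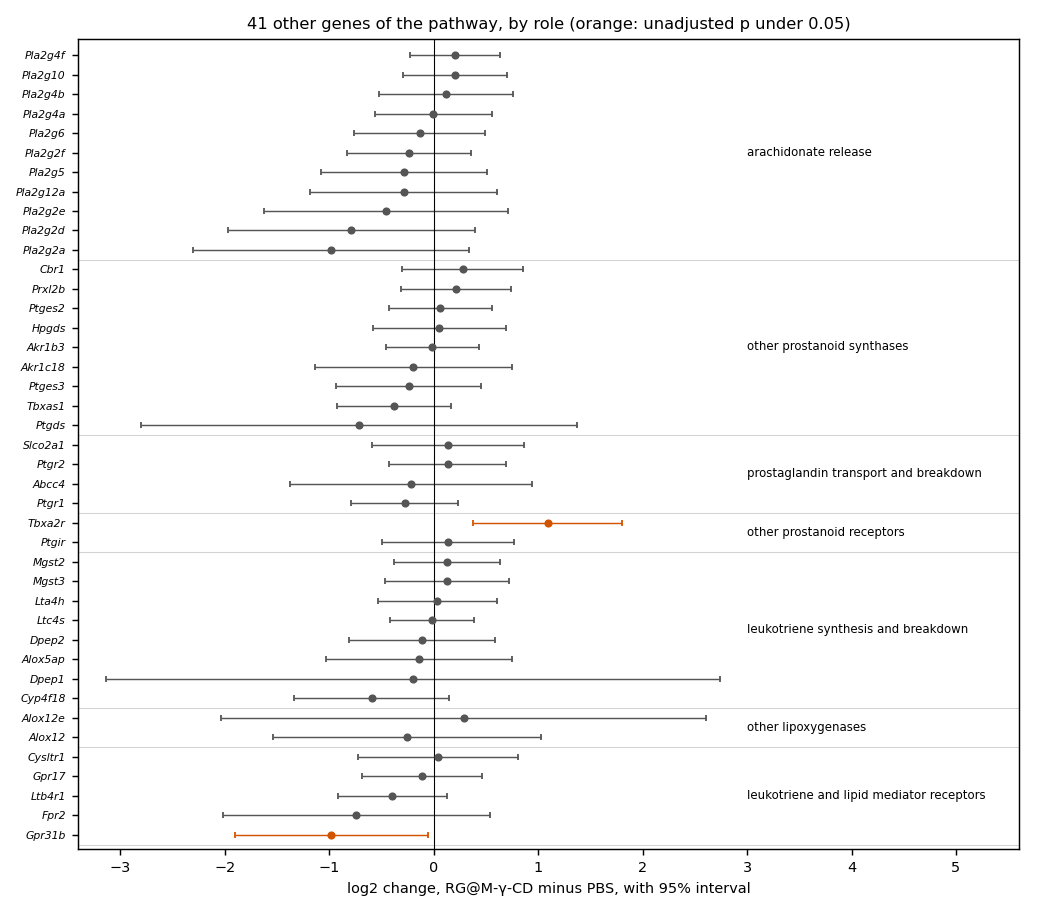
Log2 change, RG@M-γ-CD minus PBS, with its 95% interval for the 41 tested genes of the pathway other than the 10 genes described, grouped by role. Tbxa2r and Gpr31b (orange) have intervals that do not include 0, and neither passed the adjustment over all genes.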

How the data were processed

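RNA of 6 samples was measured on one-color Agilent arrays. The authors deposited the spot intensities of Agilent Feature Extraction 10.7.1.1, background-subtracted but on no common scale, and their own log2 table of 56745 probes, used as an alternative. The genome build of the probes is not given in the sources used here. Each log2 intensity was set relative to the 75th percentile of gene probes on its array, and 790 outlier spots were left out. A probe was tested if well above background on all 3 arrays of a group, and a gene by its brightest such probe, with limma 3.58.1 in R 4.3.3, a fit also tested on simulated data. Symbols of 58.29% of gene probes came from RefSeq accessions and the rest from the file. Pathway genes named were those with an unadjusted p under 0.05, the 3 largest differences each way and 8 partners. The genes, lists and rules were chosen with earlier results of these data known. The alternatives were other normalizations, filters, probe summaries, blocks, tests and groupings, and leaving out each array. The number of arrays limits the precision. The sequence of 1 probe is not reported here.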

Additional observations from a re-analysis of the deposited data

How the results depend on the processing

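Of 168 values of the 10 genes under the alternatives, 152 kept their direction and side of the threshold, 15 turned sign and 1 (Ptgis without RG@M-γ-CD replicate 1) passed the threshold. Ptges, Ptgis, Hpgd and Ptger2 turned in none of their alternatives. With the slide row as a block, which sets the RG@M-γ-CD arrays against PBS replicate 1 alone, Ptgs2 was 0.56, Ptger4 0.15 and Alox5 0.10, and the median of all genes shifted to 0.10. With the mean of a gene's probes Ptger4 was 0.0014, and along the division of the study's heat map Alox15 was −2.32. Over the fits that left out 1 array each, Ptgs1 ran from −0.14 to 0.20, Ptgs2 from −0.49 to 0.39, Ptger3 from −0.0074 to 1.91, Ptger4 from −0.18 to 0.049, Alox5 from −0.56 to 0.28 and Alox15 from −0.62 to 1.35. In the same fits 0 to 1 of the 10 genes passed the adjusted p, 0 to 3 the unadjusted p, 0 to 3 a fold change of 2 with it, and 1 to 4 did not overlap between groups. The highest of each came without RG@M-γ-CD replicate 1, where the shares of all genes were 1.06%, 12.5%, 5.86% and 25.9% in that order. Without PBS replicate 2, 2 did not overlap, against 11.5% of all genes. Of the pathway genes 0 to 2 passed the adjusted p, with 2 only without RG@M-γ-CD replicate 1. The count without overlap was 0 under quantile normalization, normexp, the authors' table and the mean of probes. Along the heat map's division it was 2, against 25.5% of all genes. There 3 stood at an unadjusted p under 0.05, against 16.5%, and 2 also at a fold change of 2, against 5.87%. The methods' t-test gave 1 at an unadjusted p under 0.05, against 2% of all genes. The labels' numbers did not pair the samples (correlations of −0.25, −0.23 and 0.14, and 0 of 3 treated arrays closest to their own number), and with the replicate block 0 of the 10 genes passed the adjusted or the unadjusted p, while the count of all genes at the unadjusted p went from 419 to 463. Where these values moved, the cause was not tested beyond the samples left out. Dim probes of Ptger2 and Ptger3 limit what their values show.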
